A study of Mus musculus with 31 samples.

Results

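Nfia, Nfib, Nfic and Nfix, the 4 genes of the nuclear factor I (NFI) family of transcription factors (TFs), were described by the accessible chromatin at their starts, in their bodies and in the 100 kb to either side. All 4 genes were members by name, out of 21938 protein-coding genes of the annotation, and 90 of the 63456 deposited peaks lay in these regions. The peaks come from an ATAC-seq experiment on 1 library made from 50000 parental NIH-3T3 cells. This fibroblast line is derived from mouse embryos and here carries no TF transgene. The labels list no doxycycline for this line, whereas the methods give 500 ng ml−1 for NIH-3T3 cells in the ATAC-seq experiments. The other 30 samples of the series, in which 13 TFs or the transactivator rtTA3G alone were expressed in these cells, were not analysed here. With 1 library there is no replicate error, peaks of 1 library are not replicates, and no test between samples was made. ATAC-seq measures where the transposase Tn5 can reach DNA, not whether a gene is transcribed.

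NFI proteins bind DNA as homodimers or heterodimers through a conserved N-terminal domain, and their preferred site is a palindrome of TTGGC and GCCAA, while a single TTGGCA (here called the NFI monomer site) is bound more weakly. NFI factors are known for roles in the differentiation of glia, muscle, bone, lung and hair follicle stem cells. In fibroblasts, distal accessible sites often carry the AP-1 consensus TGACTCA, which is bound by dimers of FOS and JUN proteins.

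A selection of summits that carried motif letters, and of strong ones that did not, is shown first, so that the letters can be read beside the values. Each sequence runs from 50 bp before to 50 bp after a summit, in mm10 on the plus strand from 5′ to 3′, with AP-1, NFI monomer or RUNX letters in capitals. The first group holds the strongest distal peak of Nfib (chr4:82435929-82436029) and the peak 149 kb inside Nfia (chr4:97926970-97927070), both in intron 2 and both with AP-1. In the Nfia sequence, 2 NFI monomer sites stand on the same strand as TGCCAA, and the second lies 2 bases before the AP-1 letters.
Nfib intron 2: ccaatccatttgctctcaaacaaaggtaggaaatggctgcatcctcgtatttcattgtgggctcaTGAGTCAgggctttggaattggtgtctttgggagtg
Nfia intron 2: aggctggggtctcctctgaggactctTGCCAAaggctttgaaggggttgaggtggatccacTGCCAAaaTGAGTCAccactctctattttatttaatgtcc

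The second group holds the highest distal peak of Nfia, in intron 4 (chr4:98004281-98004381), the peak 7.56 kb upstream of the main start of Nfib (chr4:82513278-82513378) and the highest distal peak inside Nfic, in intron 1 (chr10:81433045-81433145). None of them held a match to any of the 7 motifs searched.
Nfia intron 4: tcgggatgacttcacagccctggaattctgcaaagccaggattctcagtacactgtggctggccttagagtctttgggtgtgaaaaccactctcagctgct
Nfib upstream: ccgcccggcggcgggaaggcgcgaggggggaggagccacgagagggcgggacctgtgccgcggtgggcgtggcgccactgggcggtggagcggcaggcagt
Nfic intron 1: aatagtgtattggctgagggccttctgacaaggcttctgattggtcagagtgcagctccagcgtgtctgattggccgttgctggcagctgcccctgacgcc

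The third group holds the peaks of Nfix with a match among its named distal peaks, which are 2 peaks of intron 2 (chr8:84742771-84742871 with RUNX letters and chr8:84744163-84744263 with the NFI monomer site) and 1 peak 10.8 kb upstream (chr8:84811064-84811164 with the NFI monomer site).
Nfix intron 2, RUNX: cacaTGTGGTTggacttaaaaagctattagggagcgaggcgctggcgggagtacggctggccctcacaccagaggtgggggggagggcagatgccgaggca
Nfix intron 2, NFI: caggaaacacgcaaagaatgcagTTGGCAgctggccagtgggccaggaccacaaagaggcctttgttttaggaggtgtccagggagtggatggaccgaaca
Nfix upstream, NFI: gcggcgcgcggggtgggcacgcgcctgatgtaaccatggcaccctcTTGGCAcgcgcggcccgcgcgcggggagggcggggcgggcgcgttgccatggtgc

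The promoter of Nfic is shown because it was the only promoter of the family in the RefSeq table (GRCm38.p6) that overlapped a peak. It runs 5′ to 3′ on the minus strand over chr10:81427124-81427423, from 250 bases before the start to 50 after it, with the AP-1 letters in capitals. They begin 10 bases after the start. Of the 32851 promoters of this length in the table, 5.20% held TGACTCA on either strand. A summit lay 24 bp from the centre of these letters.
Nfic promoter: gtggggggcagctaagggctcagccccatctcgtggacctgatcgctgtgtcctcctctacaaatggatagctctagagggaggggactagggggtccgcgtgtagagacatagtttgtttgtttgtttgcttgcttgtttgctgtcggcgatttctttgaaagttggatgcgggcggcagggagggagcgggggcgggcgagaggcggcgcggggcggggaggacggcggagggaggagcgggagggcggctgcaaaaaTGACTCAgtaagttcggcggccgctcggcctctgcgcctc

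All 4 genes had at least 1 peak within 1 kb of an annotated start, as did 53.7% of the protein-coding genes. Nfia and Nfix had 4 such peaks each, and Nfib and Nfic had 2 each, whereas 2.91% of the protein-coding genes had 3 or more (638 genes, among 11788 with any). The annotated starts form 4 separate clusters in Nfia and 6 in Nfix, and the share among genes with as many was not determined. The strength of these peaks differed widely. Strength is given as fold enrichment, the ratio of the fragments at the summit to the fragments that the peak caller expected there, with 1 added to each, and as −log10 q, its significance after adjustment for multiple testing. The highest promoter peak of Nfia had a fold enrichment of 9.99, that of Nfib 7.62, that of Nfix 4.25 and that of Nfic 3.11. Of the 11788 coding genes with a promoter peak, 51.3% had a highest peak below that of Nfia, 28.2% below that of Nfib, 5.35% below that of Nfix and 1.02% below that of Nfic. Nfic and Nfix thus lay near the bottom of the range of open promoters, whose median was 9.86 (quartiles 7.27 and 12.4). For Nfic this place depends on the distance of 1 kb. Within 2 kb of a start it had 4 peaks, among them one in intron 1 with a fold enrichment of 7.44.

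The Nfia gene occupies chr4:97772734-98118874 on the plus strand. Its 2 strongest promoter peaks were not at the start shared by most transcripts but about 5 kb upstream, on either side of the start of a single transcript (Nfia-208) at position 97772734. The peak before that start (chr4:97771973-97772585) had 121 fragments (95% exact Poisson interval 100.4 to 144.6) against 11.2 expected, with a −log10 q of 75.9. The peak after it (chr4:97773261-97773496) had 94 fragments (76.0 to 115.0) against 12.3 expected and a fold enrichment of 7.14. The main start cluster, where 5 coding transcripts begin between 97777608 and 97777834, lay in a sequence of 68.7% GC with an observed to expected CpG ratio of 0.947. It had 2 weaker peaks, one over the starts (chr4:97777723-97778002, 38 fragments, fold enrichment 3.98) and one in intron 1 (chr4:97778271-97778920, 30 fragments, fold enrichment 3.95). The intervals of the upstream pair of peaks did not overlap those of the pair at the main start. E130114P18Rik, a coding gene on the minus strand, starts at 97778078 between the peaks of the main start, and ATAC-seq cannot tell its promoter from that of Nfia. The remaining 2 start clusters of Nfia had no peak.

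The Nfib gene, at chr4:82290173-82705750 on the minus strand, had 1 wide peak over its main start. There 10 of its 12 transcripts begin, between 82505308 and 82505779. This peak (chr4:82505243-82506590) was 1348 bp wide and had 80 fragments (63.4 to 99.6) against 9.63 expected, with a −log10 q of 42.0. A second peak in intron 1 (chr4:82504387-82504541) had 22 fragments (fold enrichment 2.16), and its −log10 q of 1.72 was close to the lowest in the list (1.302). The start of the transcript Nfib-212, about 200 kb further upstream, had no peak within 4184 bp.

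The Nfic gene, at chr10:81396186-81455635 on the minus strand, had 5 start clusters, of which 2 had a peak. The cluster of 3 coding transcripts between 81427114 and 81427187 was overlapped by a peak (chr10:81427044-81427196) of 26 fragments (17.0 to 38.1) against 8.34 expected (fold enrichment 2.89, −log10 q 4.42). The single start at 81431005 had a peak 207 bp away (chr10:81430462-81430798) of 32 fragments (21.9 to 45.2) against 9.62 expected. The outermost start, that of the longest transcript (Nfic-207), had no peak within 5225 bp.

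The Nfix gene, at chr8:84699876-84800344 on the minus strand, had 1 peak at its outermost starts and 3 around internal starts. The outermost cluster, where 3 coding transcripts begin between 84800024 and 84800344 in a sequence of 81.1% GC, had a peak 103 bp away (chr8:84800447-84800640) of 18 fragments (10.7 to 28.4) against 4.81 expected. The 3 peaks near the internal starts at 84774369 and 84773396 had 26, 22 and 17 fragments, with fold enrichments of 4.25, 3.64 and 2.86. The highest of them (chr8:84775161-84775448) held an NFI monomer site. All 6 promoter peaks of Nfic and Nfix had 17 to 32 fragments, and their intervals lay below those of the 2 upstream peaks of Nfia and of the main peak of Nfib. The median over all promoter peaks of the list was 49 fragments.

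**Figure D1:**
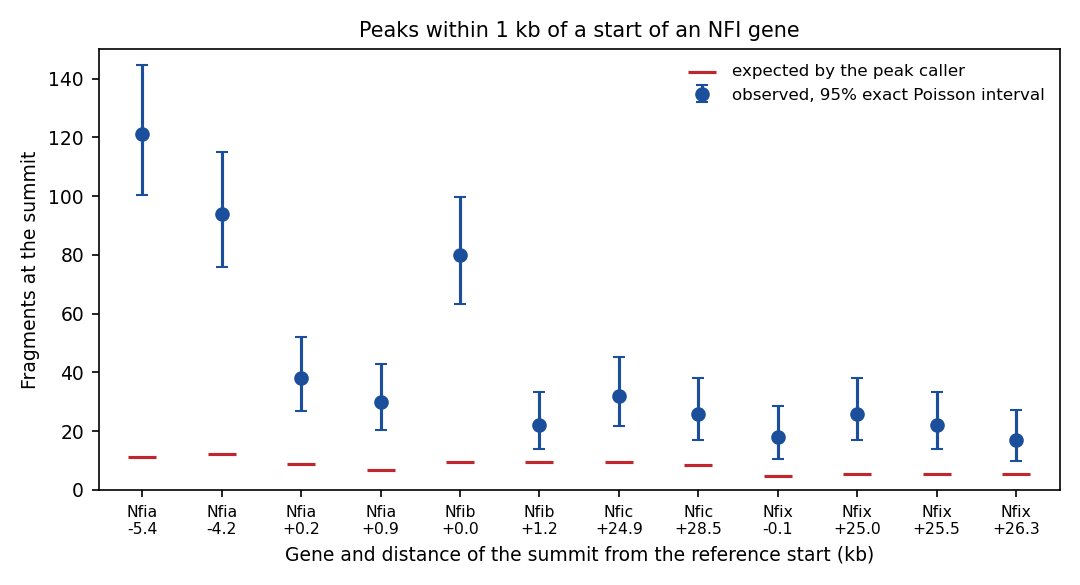
Fragments at the summit of the 12 peaks within 1 kb of a start of an NFI gene, ordered by gene and by distance in kb from the start of the reference transcript. Points are the observed fragments with 95% exact Poisson intervals, and red bars are the fragments expected by the peak caller. The 2 upstream peaks of Nfia (121 and 94) and the main peak of Nfib (80) stand above the other 9, which have 17 to 38 fragments.

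Of the 90 peaks, 50 had their summit in a gene body, and 38 of these were distal, that is, more than 1 kb from any annotated start. With the flanks, 52 peaks were distal (57.8%, beside 74.4% of all peaks). The density of peaks in the body was 12.9 per 100 kb in Nfix (13 peaks in 100.5 kb), 10.1 in Nfic (6 peaks in 59.5 kb), 4.33 in Nfib (18 peaks in 416 kb) and 3.76 in Nfia (13 peaks in 346 kb). The annotated body of Nfib reaches to 82705750 through the start of 1 transcript (Nfib-212), whereas the reference transcript begins at 82505770. The density and rank of Nfib depend on that transcript, and its density over the reference transcript alone was not determined. Among the 5007 coding genes with a body of at least 50 kb, the median density was 2.38 per 100 kb (quartiles 0.870 and 4.71). Nfix took rank 49 in this order, Nfic rank 169, Nfib rank 1402 and Nfia rank 1694. The 2 genes with the weaker promoter peaks, Nfix and Nfic, thus had the higher density of peaks in the body, and they were also the shorter ones. For Nfix this did not hold among peaks whose fold enrichment was 5 or more, of which it had 1.99 per 100 kb, Nfia 2.02, Nfib 2.41 and Nfic 3.36, beside a median of 1.48 over the 5007 genes. G430095P16Rik, a gene inside Nfix, and Mir1191b, a miRNA gene inside Nfic, each had 1 of the body peaks within 1 kb of its own start.

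**Figure D2:**
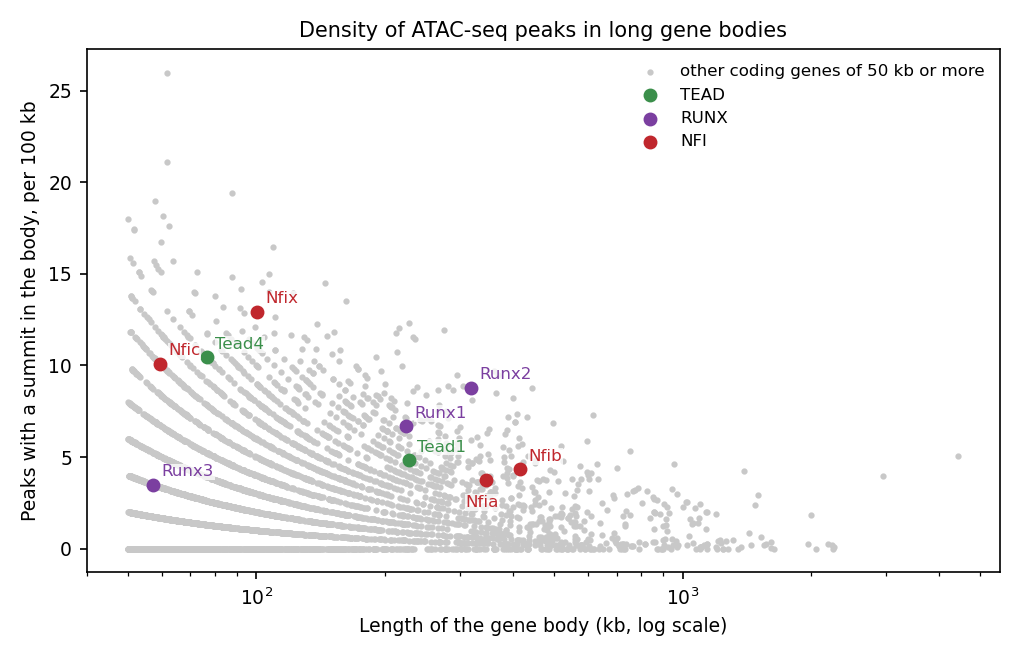
Peaks with a summit in the gene body, per 100 kb, against the length of the body in kb on a log scale, for the 5007 coding genes of 50 kb or more. Each grey point is a gene, and the NFI, TEAD and RUNX genes of that length are coloured. Nfix (12.9) and Nfic (10.1) lie above Nfib (4.33) and Nfia (3.76), and all 4 lie above the median of 2.38. The order changes for Nfix among peaks whose fold enrichment was 5 or more.

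Directly above and below each NFI gene in this order stood the following genes. Il11ra1 (12.95 per 100 kb, rank 48) and Dnmbp (12.85, rank 50) stood beside Nfix, Pacsin2 (10.11) and Elmsan1 (10.04) beside Nfic, Shc3 (4.34) and Pcdhgb1 (4.33) beside Nfib, and Trip4 (3.76) and Col14a1 (3.75) beside Nfia. The likeness is of 1 density in 1 library.

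Most intronic peaks of each gene lay in introns 1 and 2, which included its longest intron. Positions are given by the coding transcript with the longest span. In Nfib, 10 of the 12 intronic peaks lay in intron 2 (114.6 kb, 8.73 per 100 kb), 1 each lay in introns 1 and 3, and introns 4 to 10 had none. In Nfia, 6 of 10 intronic peaks lay in intron 2, which at 172.8 kb is the longest intron of the family, and introns 1, 3, 4 and 6 had 1 each. In Nfic, 5 of 6 intronic peaks lay in intron 1. In Nfix, introns 1 and 2 held 4 and 6 of 13 intronic peaks, and introns 6, 7 and 9 held 1 each. Per 100 kb, intron 2 of Nfia held 3.47 peaks beside 3.76 in the whole body, and that of Nfib 8.73 beside 4.33. Intron 1 of Nfic held 14.4 beside 10.1, and introns 1 and 2 of Nfix 14.4 and 13.7 beside 12.9. The short introns 6 and 7 of Nfix, with 1 peak each, had 38.2 and 52.4. The longest stretch of a body without a summit was 116.05 kb in Nfib, 79.9 kb in Nfia, 20.8 kb in Nfic and 20.6 kb in Nfix. The stretch of Nfib ran from the summit at 82589700 to the start of the transcript Nfib-212 at 82705750, all of it upstream of the main start. It belongs to the body only through that transcript, and it also counts in the body density of Nfib (4.33). The longest stretch downstream of the main start was not determined.

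**Figure D3:**
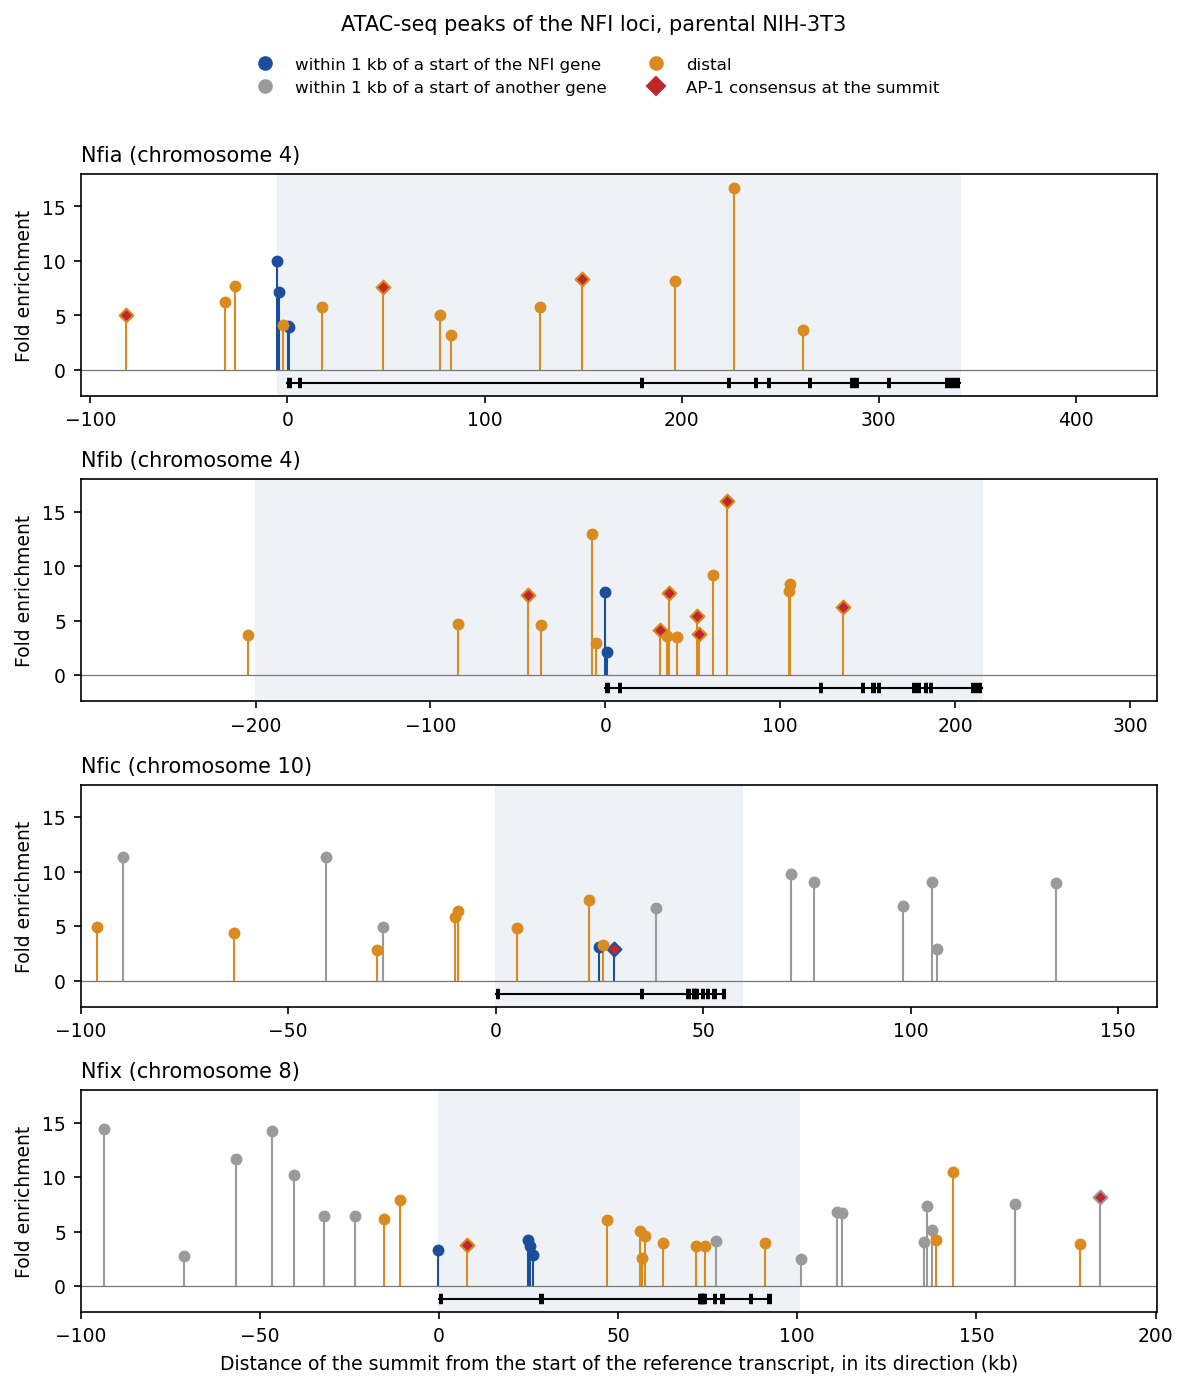
Peaks of the 4 NFI loci by distance in kb from the start of the reference transcript, in its direction, and by fold enrichment at the summit. The shaded area is the annotated gene body, the black line and blocks are the introns and exons of the reference transcript, and colours give the class of each peak, with red diamonds for an AP-1 consensus at the summit. Nfia and Nfib have tall distal peaks in their introns (16.7 and 16.0) and nearly empty flanks, and Nfic and Nfix have flanks filled with promoter peaks of other genes.

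The strongest accessible sites of Nfia and Nfib were distal, not at their promoters. The Nfia peak in intron 4 (chr4:98003861-98004628), 226.7 kb from the main start, had 96 fragments (77.8 to 117.2) against 4.80 expected and a fold enrichment of 16.7 with a −log10 q of 84.0. The Nfib peak in intron 2 (chr4:82435665-82436247), 69.8 kb from the main start, had 95 fragments (76.9 to 116.1) against 4.99 expected and a fold enrichment of 16.0 with a −log10 q of 81.2. These fold enrichments exceeded those of 98.9% and 98.4% of the 47192 distal peaks. In fragments, the Nfia distal peak (96) lay within the range of the 2 upstream promoter peaks (94 and 121), and the Nfib distal peak (95) had an interval that overlapped that of the main promoter peak (80). At both genes, the higher fold enrichment of the distal peak went with a lower expected number of fragments (4.80 against 11.2 and 4.99 against 9.63).

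A further peak near the main start of Nfib (chr4:82513122-82513624) had 99 fragments (80.5 to 120.5) against 6.73 expected and a fold enrichment of 12.9. It lay 7.56 kb upstream, and its summit was 5312 bp from the nearest annotated start. Its 503 bp had 70.0% GC and an observed to expected CpG ratio of 0.864, close to that of the wide peak over the main start (65.9% GC, 0.859). The AP-1 peak in intron 2 had 46.5% GC and a ratio of 0.162. None of the 52 distal peaks of the family had a start of the RefSeq promoter table within 1 kb. That set holds no entry for Nfib, so it cannot show whether a RefSeq start of Nfib lies near its peaks.

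Other distal peaks of Nfia and Nfib were of medium strength. The next in the body of Nfib (chr4:82443957-82444478) had 41 fragments and a fold enrichment of 9.18. In Nfia, the intron 2 peak with AP-1 and NFI letters (chr4:97926731-97927498) had 33 fragments (fold enrichment 8.36), and the intron 3 peak (chr4:97974166-97974349) had 31 fragments and a fold enrichment of 8.11. The remaining 7 distal peaks in the body of Nfia had fold enrichments of 3.15 to 7.62, and the remaining 13 in that of Nfib 2.94 to 8.35.

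The distal peaks of Nfic and Nfix were weaker. The highest of Nfic (chr10:81432921-81433276, intron 1) had 73 fragments (57.2 to 91.8) against 8.95 expected and a fold enrichment of 7.44. The others in its body had fold enrichments of 4.83 and 3.30. Inside Nfix, the 3 highest were all in intron 2, with 33, 46 and 45 fragments and fold enrichments of 6.01, 5.00 and 4.56. Over body and flanks, the median fold enrichment of distal peaks was 5.78 in Nfia (13 peaks), 5.43 in Nfib (17), 4.90 in Nfic (8) and 4.08 in Nfix (14), beside 5.54 for all distal peaks (quartiles 4.15 and 8.14). In fragments the loci ranked the other way, with medians of 23 in Nfia and Nfib, 32 in Nfic and 31.5 in Nfix. The expected number of fragments had medians of 2.85, 3.57, 7.68 and 5.84, so that it was higher at the loci with the lower fold enrichment. Its part in the difference between the loci was not tested.

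**Figure D4:**
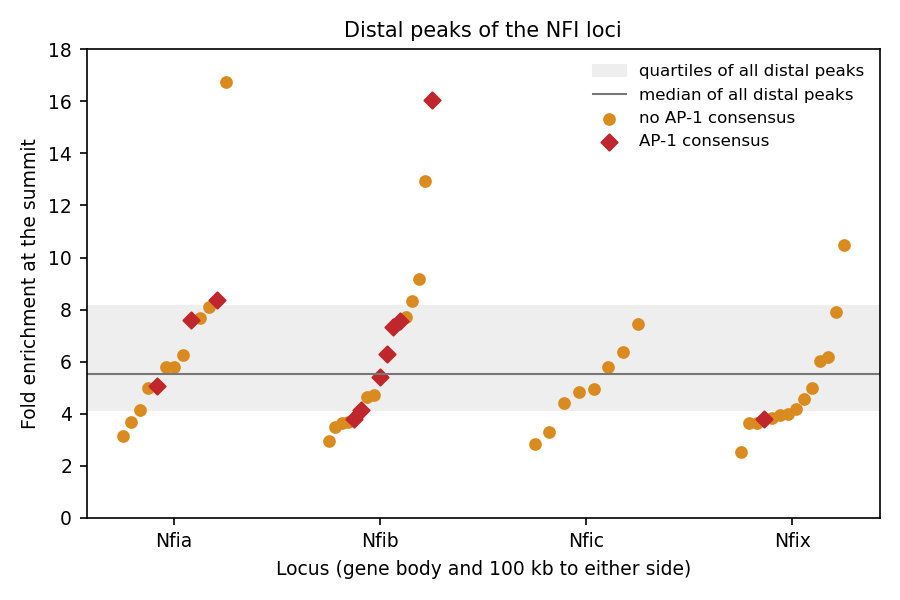
Fold enrichment at the summit of the 52 distal peaks of the NFI loci, ordered within each locus, with red diamonds for peaks that hold an AP-1 consensus. The grey band and line are the quartiles (4.15 and 8.14) and median (5.54) of all distal peaks. The 2 highest points, of Nfia (16.7) and Nfib (16.0), stand far above the band, and the highest points of Nfic and Nfix reach 7.44 and 10.5.

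The surroundings of the 4 genes differed as well. Nfia had 4 peaks in its upstream 100 kb, of which 1 was the promoter peak already described, and none in its downstream 100 kb. Nfib had 1 upstream peak (fold enrichment 3.68) and none downstream. The 2 highest distal flanking peaks of Nfia (chr4:97751058-97751930 and chr4:97745754-97746261) had fold enrichments of 7.67 and 6.24 and lay 26.4 and 31.7 kb before the main start. Nfic had 14 flanking peaks, of which 9 were within 1 kb of the start of another gene, and Nfix had 21, of which 15 were. Of the coding genes in reach of the flanks or inside the body, 10 of 17 (58.8%) had a promoter peak around Nfic and 12 of 13 (92.3%) around Nfix, beside 53.7% of all coding genes. All 10 open ones around Nfic, and 10 of the 12 around Nfix, had a highest promoter peak above that of the NFI gene. This follows largely from the low place of the 2 genes. Of all 11788 coding genes with a promoter peak, only 1.02% had a highest peak below that of Nfic and 5.35% below that of Nfix. Peaks at starts of other genes had a median fold enrichment of 8.995 in the Nfic locus (10 peaks, 2.89 to 11.4) and 6.74 in the Nfix locus (16 peaks, 2.49 to 14.4). Among them were the starts of Calr, a chaperone of the endoplasmic reticulum (14.2), and of Gna11, a G protein subunit (11.4). The highest distal flanking peak of Nfix (chr8:84656491-84657277), downstream of the gene, had 68 fragments and a fold enrichment of 10.5, and the highest upstream one (chr8:84810985-84811435) had 56 fragments and 7.89. The 2 highest of Nfic (chr10:81464439-81464999 and chr10:81465312-81465624) lay 8.98 and 9.84 kb upstream, with fold enrichments of 6.36 and 5.79. A flanking peak is placed by distance only and may belong to another gene.

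AP-1 letters were found at 11 of the 52 distal summits of the family, or 21.2% (95% exact binomial interval 11.1 to 34.7), beside 26.4% of all distal summits. The share of all distal peaks lay within the interval, and which of the shares was higher changed with the settings. Within 25 bp of the summit they were 19.2% in the NFI loci and 13.5% in all, and among peaks whose fold enrichment was 5 or more they were 30.8% (of 26 peaks) and 30.7%. The AP-1 letters were unevenly spread over the genes. Nfib had 7 of 17 (41.2%, interval 18.4 to 67.1), Nfia 3 of 13, Nfix 1 of 14 and Nfic 0 of 8. With 8 peaks, a count of 0 allows a share of up to 37.5% by the limit of 3 counts of the total (exact binomial upper bound 36.9%). The intervals of the 4 genes overlapped. All but 1 of the 11 were in gene bodies (10 of 38, or 26.3%), and 1 of 14 was in a flank. Of the 7 in Nfib, 5 were among the 10 peaks of intron 2.

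The AP-1 letters were counted only within 50 bp of the summit, which bounds their distance from it. The distance from their centre to the summit had a median of 13 bp (0 to 23 bp), and 8 of 11 (72.7%) were within 20 bp, beside a median of 22 bp and 44.4% over the 12437 distal peaks of the list with AP-1. No interval was computed for this share of 11 peaks. The smallest distance, 0 bp, was in the intron 2 peak of Nfia 48.4 kb from the main start, which had 28 fragments and a fold enrichment of 7.62. The 11 peaks with AP-1 had a median fold enrichment of 6.30 and the 41 without it 4.83, beside 6.31 and 5.30 over all distal peaks. In fragments the order was reversed, with medians of 23 with AP-1 and 30 without it in the NFI loci, beside 30 and 24 in all distal peaks. The median expected number of fragments was 3.07 with AP-1 and 4.85 without it in the NFI loci, and its part in the difference was not tested.

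The letters of the family's own motif were also counted. The NFI monomer site was present at 7 of the 52 distal summits (13.5%, interval 5.59 to 25.8), of which 3 were in Nfib, 3 in Nfix and 1 in Nfia, beside 7.66% of all distal summits. The palindrome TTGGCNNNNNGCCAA, searched on both strands, was at none of the 52, which allows a share of up to 5.77% by the limit of 3 counts (exact binomial upper bound 6.85%), and at 7 of all distal summits (0.0148%). A site with different or missing bases would not be counted. The TEAD letters CATTCCA were at 2 of the 52 (3.85%), both in the Nfib locus, beside 3.27%. The RUNX letters TGTGGTT were at 1 (1.92%), in Nfix, beside 5.05%. The E-box CACGTG was at 2 (3.85%) beside 1.72%, and the cAMP response element TGACGTCA at none beside 0.206%. In all, 33 of the 52 summits held none of the 7 motifs. A single peak held 3 of them, AP-1, NFI monomer and TEAD, in the upstream part of the Nfib body (chr4:82549795-82550039, 28 fragments, fold enrichment 7.33).

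**Figure D5:**
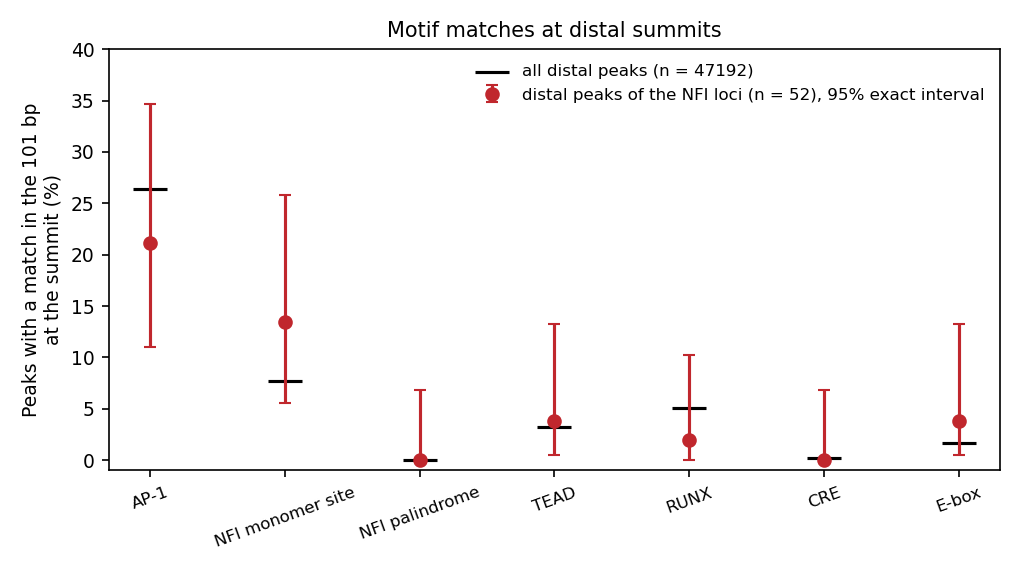
Share in percent of distal peaks with a motif match within 50 bp of the summit, for the 52 peaks of the NFI loci (red points with 95% exact binomial intervals) and for all 47192 distal peaks (black bars). For each of the 7 motifs the share of all distal peaks lies within the interval of the NFI loci, for AP-1 at 26.4% against 21.2% and for the NFI monomer site at 7.66% against 13.5%.

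Other TF families were read in the same way to place the NFI genes. The counts below stand beside the 53.7% of all coding genes that had a promoter peak. All 4 TEAD genes, which mediate transcription downstream of Hippo signalling, had a promoter peak, with highest fold enrichments of 4.34 to 7.55. Of Runx1, Runx2, Runx3 and their cofactor Cbfb, 3 of 4 had one (6.09 to 10.5), and Runx3 had none. All 7 AP-1 genes examined had one (4.97 to 10.1), as did 8 of 9 other mesenchymal TF genes (3.65 to 14.3). The highest promoter peak of Nfic (3.11) was thus below the lowest of these families, and that of Nfix (4.25) below all but that of Prrx1 (3.65). Those of Nfia (9.99) and Nfib (7.62) were above the TEAD range and within the ranges of the RUNX, AP-1 and mesenchymal genes. Runx2, a regulator of bone formation, had 28 body peaks, more than any NFI gene, at a density (8.78 per 100 kb) between those of Nfic and Nfib. As a check of the cell type, all 11 fibroblast marker genes had a promoter peak, and 0 of 3 blood, 0 of 3 neuron and 0 of 2 muscle markers did. Prrx1 and Twist1 were counted both as fibroblast markers and among the mesenchymal TF genes. Of the epithelial markers 1 of 4 had one (Krt8, 3.25). The endothelial markers Pecam1 (8.40) and Cdh5 (12.8) both had one, and the part of this in the values of the NFI genes was not tested.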

How the data were processed

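ATAC-seq was performed on 1 library of parental NIH-3T3 cells. According to the methods and to the submitters' processing notes, paired-end reads were aligned to mm10 with STAR (version 2.5.3a), uniquely mapped reads were kept, duplicates were removed with Picard, and peaks were called with MACS2 (version 2.1.1.20160309) on whole fragments. The methods describe no shift of read ends to the Tn5 cut. The authors deposited for each peak a fold enrichment (the ratio of fragments at the summit to the local expected fragments, each with 1 added), a −log10 p and a −log10 q from a Poisson test, a score that rescales the −log10 q, and the position of the summit. The lowest deposited −log10 q was 1.302.

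The number of reads is not part of the peak list. The fold enrichment and −log10 p of a peak together fix the fragments at its summit, and 99.997% of the peaks gave a whole number within 0.02. The median summit had 29 fragments and the lowest 10, at a background of 2.81 fragments. Intervals are 95% exact Poisson intervals for fragments and 95% exact binomial intervals for shares. Fragments of a PCR-amplified library without molecular identifiers are not independent molecules, so intervals and limits cover counting error only.

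Coordinates are those of mm10, counted from 1. Starts, introns and gene bodies come from GENCODE M21 on the same build. A promoter peak is one whose interval lies within 1 kb of any annotated transcript start, a distal peak lies farther from every start, and a peak belongs to a body or flank by its summit. Starts within 500 bp were joined into clusters. GC and CpG values of starts are from 1001 bp. Motifs were counted on both strands within 50 bp to either side of the summit, with all 47192 distal peaks as background. RefSeq promoter sequences (GRCm38.p6) matched 3 of the 4 genes, and Nfib had no entry. Named were all promoter peaks and, per gene, the 3 distal peaks of the body and the 2 of the flanks with the highest fold enrichment. Other peaks named, and the printed sequences without a motif, were chosen after their values were seen. The genes, lists and alternatives were chosen with earlier results of these data known. Scripts were tested on simulated data and run in Python 3.11.15 with SciPy 1.17.1, NumPy 2.4.6 and pandas 2.3.3, and plots were drawn in matplotlib 3.10.9.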

Additional observations from a re-analysis of the deposited data

How the results depend on the processing

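The counts depended on the peak threshold and on distances, and with 1 library no test or replicate error was available. No paired analysis was possible because the peak list comes from a single library. Of 12 promoter peaks, 3 were left at a fold enrichment of at least 5 and 3 when the peak had to overlap the start itself. At a fold enrichment of at least 5, Nfic and Nfix had 0 promoter peaks, Nfia 2 and Nfib 1. Requiring overlap left 0 for Nfix and 1 for each of the others. Within 2 kb of a start there were 15 promoter peaks, with 4 in Nfia, 2 in Nfib, 4 in Nfic and 5 in Nfix. The place of Nfic among open promoters was not recomputed at that distance. At RefSeq starts, Nfia had 0 and Nfic 1. The 50 body peaks fell to 21 at a fold enrichment of at least 5, with 7 in Nfia, 10 in Nfib, 2 in Nfic and 2 in Nfix, so that Nfix went from the highest density of the 4 genes to the lowest. The 40 flanking peaks became 88 with flanks of 200 kb. The share of coding genes with a promoter peak was 52.0% at a q of 1e-05 or below, 48.8% at a fold enrichment of at least 5 and 48.7% with overlap of the start. The AP-1 share of distal peaks stayed within its interval (11.1 to 34.7%) under each alternative run, but its side of the share of all distal peaks turned. It was below in the reported setting (21.2% against 26.4%), at a q of 0.01 or below (21.2% against 26.6%), at a q of 1e-05 or below (23.3% of 43 peaks against 28.5%), within 100 bp of the summit (26.9% against 36.5%) and in whole peaks (30.8% against 40.8%), and above within 25 bp of the summit (19.2% against 13.5%) and at a fold enrichment of at least 5 (30.8% of 26 peaks against 30.7%). Of 111 alternative values, 77 stayed within 1.5 times the count or within the interval, and 34 did not. The weak promoter peaks rest on few fragments. The peak in intron 1 of Nfib, with 22 fragments against 9.63 expected, was lost at a q of 0.01, where Nfic and Nfix kept all of theirs. Those kept included Nfix peaks of 17 and 18 fragments, against 5.28 and 4.81 expected.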

Other observations

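The sequence at the highest distal peak inside Nfic, printed in the report, held CCAAT or its reverse complement ATTGG 3 times. This was counted after the sequence had been read. It was the only 1 of the 90 peaks of the NFI loci with 3 or more, beside 0.259% of all distal summits and 0.633% of all summits within 1 kb of a start. At least 1 such match was present at 14 of the 90 summits (15.6%), beside 13.8% of all distal summits and 19.9% of those within 1 kb of a start. The peak had no annotated start within 1 kb, and its summit lay 2090 bp from the nearest one.

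The palindrome of the NFI family was also searched with other letters after the data had been seen. TGGCANNNTGCCA was at 0 of the 52 distal summits of the NFI loci and at 30 of all 47192 (0.0636%).

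The start that the RefSeq promoter table gives for Nfia (97581943 on chromosome 4) lies outside the GENCODE gene body, and the nearest peak was 16901 bp from it. The 4 starts given for Nfix were 380 to 4634 bp from the nearest peak, and none of their promoter sequences overlapped one.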
